A study of Mus musculus with 15 samples.

Results

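Transcripts of the p53 pathway were followed in T-ALL (acute lymphoblastic leukemia of T cells) cultures of the mouse after the MYC oncogene was turned off. The set held 10 genes, chosen by symbol among the 53380 features of the deposited count tables: Trp53, which encodes p53, Mdm2 and Cdkn2a, which regulate the p53 protein, and the p53 target genes Ccng1, Trp53inp1, Sesn1, Zmat3, Phlda3, Eda2r and Plk2. The cells came from tumors of EμSRα-tTA/tet-O-MYC mice, in which a tetracycline-regulated transactivator, expressed from the EμSRα element, drives a human MYC transgene until doxycycline is given. RNA was sequenced from MYC on cells given mock treatment (0 h) and from MYC off cells at 2, 4, 8 and 24 h of doxycycline, in 3 libraries per time point and 15 in all. All groups carried the transgene, and neither a doxycycline-treated cell without it nor a mock-treated culture at the later times was used here. No label tells if replicate libraries were separate cultures or if the cells were 1 clone, so p-values here cover no more than the spread between libraries.

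p53 is a transcription factor that is made continuously and kept scarce. MDM2, itself encoded by a p53 target gene, tags the p53 protein for degradation, and p19ARF, 1 of the products of Cdkn2a, holds MDM2 back and is a known link from high MYC activity to p53. Active p53 raises genes for cell cycle arrest, apoptosis, DNA repair and metabolic control, and loss of the ARF and p53 axis is a common feature of MYC-driven lymphoid tumors. Most of this control acts on protein, which RNA levels do not measure.

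The libraries held 25852711 to 27102318 assigned counts (median 26672358), so that 3 counts corresponded to 0.111 to 0.116 CPM (counts scaled to a common library size). The human MYC transcript averaged 2023 ± 52.2 CPM at 0 h (SD, n = 3 here and below) and 24.8 ± 1.98, 9.41 ± 1.46, 5.58 ± 0.552 and 3.29 ± 0.313 CPM at 2, 4, 8 and 24 h, which fits the labels. The summed level of 12 T lineage markers was 10187.5 to 10786.9 CPM at 24 h, against 5810 to 5878 CPM at 0 h, while 6 B cell markers summed to at most 0.935 CPM in any library. Of the 8 myeloid, 7 erythroid and 7 stromal and endothelial markers, 3, 4 and 2 were at 0 in every library, with Lyz2, Cd14, S100a8, Dcn and Cdh5 among them, and the summed levels of these lists were 24.9 to 32.1, 7.31 to 7.66 and 119 to 142 CPM at 24 h, against 10.5 to 12.4, 1.78 to 2.54 and 56.5 to 59.8 CPM at 0 h. Among the detected markers, Itgam was higher than at 0 h at all 4 later times (edgeR adjusted p under 0.01), and Csf1r lower at 4 and 8 h. Epor and Pecam1 were higher at 4, 8 and 24 h, and Pdgfrb at 8 and 24 h. The part of these shifts in the results below was not tested. The third 24 h library stood apart: its share of ribosomal protein gene counts was 3.51%, where its 24 h replicates had 5.48% and 5.82% and the earlier times 10.2% to 13.4%. The members' 24 h results against 0 h are therefore given with and without it.

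Levels per transcript length, taken from the deposited TPM (transcript abundances scaled for length and depth), ordered the members as follows in MYC on cells. Cdkn2a was the most abundant, with 305, 294 and 308 TPM in the 0 h libraries. Trp53 followed with 164, 161 and 153 TPM, and Sesn1, which encodes the stress-inducible protein Sestrin 1, with 133, 126 and 139 TPM. Trp53inp1, whose product promotes p53 phosphorylation and autophagy, had 119, 108 and 121 TPM, all below Sesn1. Ccng1, the gene of cyclin G1, which recruits a phosphatase to MDM2, had 82.6, 87.6 and 87.3 TPM, and Mdm2 ranged over 39.9 to 41.2 TPM. In this order no neighbors overlapped between their 3 libraries. Zmat3, a zinc finger gene whose product binds RNA, lay far lower, with 2.16, 2.26 and 2.11 TPM.

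The remaining targets were nearly silent. Phlda3, an inhibitor of AKT signaling, had 29 counts over the 15 libraries together. At 0, 2, 4 and 8 h no library held more than 2 counts of it, and the 24 h libraries held 7, 1 and 11, the last of these in the library that stood apart. Eda2r, a receptor of the tumor necrosis factor family, and Plk2, a polo-like kinase, had 0 counts in every library, and a count of 0 allows up to 3 counts, or 0.116 CPM in the shallowest library, counting error only. No member of the set shared exons with another gene in the GENCODE annotation (release M21, GRCm38), and 7 of the 10 passed the filter on low counts and entered the tests.

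**Figure D1:**
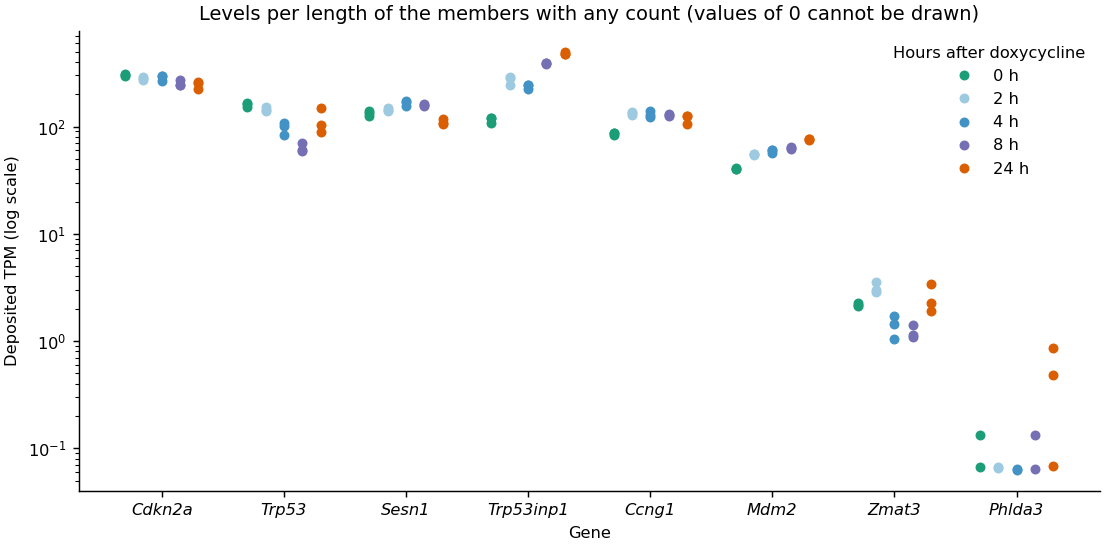
Deposited TPM (log scale) of the 8 members with any count, in each of 3 libraries at 0, 2, 4, 8 and 24 h of doxycycline; values of 0 are not drawn. Cdkn2a led at 0 h (294 to 308 TPM) and Trp53inp1 at 24 h (473 to 494 TPM), while Zmat3 and Phlda3 stayed below 4 TPM throughout.

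Because most members are p53 target genes, the DNA around the start sites was read for p53 half-sites, the 10-base units of which p53 binds a pair. It was also read for CACGTG, the E-box bound by MYC and MAX. Trp53 and Cdkn2a, in the set as the gene and a regulator of p53, were read likewise. RefSeq promoter windows (GRCm38.p6, 250 bases before to 50 after the start, both strands searched) were at hand for 8 of the 10 members, with 2 windows each for Cdkn2a and Sesn1, and none for Trp53inp1 or Zmat3. A match to the p53 half-site consensus stood in 4 of the 10 windows, and CACGTG in 2, those of Trp53 and Eda2r. Over all 32851 windows the shares were 8.36% and 7.15%. None of the 10 windows of these 8 members held a pair of half-sites at most 13 bases apart, and sequence outside the windows was not searched. That arrangement was found in 24 of all windows (0.0731%), 1 of which belongs to Cdkn1a, the gene of the cell cycle inhibitor p21. Cdkn1a also had a window at another start (chr17:29093519-29093818), which held no half-site. A match is only a run of letters and no measure of binding. The 4 matching windows and the Cdkn1a window with the pair are shown 5′ to 3′ on the strand of the gene. Half-sites, and CACGTG in the case of Trp53, are in capitals.
Trp53 (chr11:69580109-69580408, + strand): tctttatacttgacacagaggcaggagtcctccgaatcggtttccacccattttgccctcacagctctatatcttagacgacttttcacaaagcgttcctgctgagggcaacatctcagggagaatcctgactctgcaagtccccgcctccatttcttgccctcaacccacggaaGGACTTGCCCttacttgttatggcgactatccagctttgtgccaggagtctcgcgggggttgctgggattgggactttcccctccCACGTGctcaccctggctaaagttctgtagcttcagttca
Mdm2 (chr10:117710709-117711008, - strand): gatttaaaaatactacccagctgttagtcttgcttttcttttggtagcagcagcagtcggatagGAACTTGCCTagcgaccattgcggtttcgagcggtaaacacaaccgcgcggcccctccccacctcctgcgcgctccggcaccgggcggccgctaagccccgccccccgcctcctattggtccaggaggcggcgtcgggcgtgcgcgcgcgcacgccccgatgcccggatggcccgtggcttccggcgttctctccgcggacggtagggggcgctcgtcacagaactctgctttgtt
Ccng1 (chr11:40755237-40755536, - strand): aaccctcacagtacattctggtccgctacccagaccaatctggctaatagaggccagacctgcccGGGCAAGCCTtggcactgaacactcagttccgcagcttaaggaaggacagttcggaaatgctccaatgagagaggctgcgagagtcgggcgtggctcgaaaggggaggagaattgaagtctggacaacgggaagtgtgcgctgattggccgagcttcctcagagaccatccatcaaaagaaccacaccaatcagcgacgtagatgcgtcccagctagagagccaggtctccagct
Sesn1, second start (chr10:41887189-41887488, + strand): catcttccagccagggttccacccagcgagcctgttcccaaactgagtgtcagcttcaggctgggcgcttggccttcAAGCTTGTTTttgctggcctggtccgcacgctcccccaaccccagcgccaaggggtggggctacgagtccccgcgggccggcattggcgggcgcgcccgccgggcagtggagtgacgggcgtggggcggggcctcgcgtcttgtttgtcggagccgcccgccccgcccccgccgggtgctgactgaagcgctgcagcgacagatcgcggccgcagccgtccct
Cdkn1a (chr17:29090729-29091028, + strand): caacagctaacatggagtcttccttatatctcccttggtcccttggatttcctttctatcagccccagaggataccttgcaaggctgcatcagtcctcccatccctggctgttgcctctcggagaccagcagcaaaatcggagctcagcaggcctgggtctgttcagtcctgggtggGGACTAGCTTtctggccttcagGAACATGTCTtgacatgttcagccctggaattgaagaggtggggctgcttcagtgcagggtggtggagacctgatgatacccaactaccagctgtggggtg
Counted from the start of transcription, the half-sites began at -75 in Trp53, -186 in Mdm2, -185 in Ccng1 and -173 in Sesn1 (second start). Those of Cdkn1a began at -73 and -51 from the start in the window shown, not from its other start.

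To ask how the set moved when MYC was lost, each time point was compared with 0 h on counts scaled by TMM, and each step with the time before it. The 4 comparisons with 0 h share the 3 MYC on libraries. A gene was called at an adjusted p under 0.01 over all 14485 genes tested. Of the 7 tested members, 3 were higher and none lower at 2 h, where 15.2% of all genes were called (6.6% higher, 8.59% lower). At 4 h 4 were higher and 2 lower, where 38.1% were called (18.1% higher, 19.9% lower). The 8 h comparison had 3 higher and 2 lower, where 50.4% were called (25.3% higher, 25.1% lower). At 24 h 2 were higher and 3 lower, where 58.8% were called (30.7% higher, 28.1% lower). All 7 tested members were called over the time course as a whole, as were 74.2% of all genes. At 4 to 24 h a call by itself therefore says little about this set. The members were also chosen with earlier results of these data known. The counts and medians given here, those at 2 h included, thus describe the set and do not test it. The median log2 fold change of the 7 tested members was 0.42, 0.36, 0.23 and -0.16 at 2, 4, 8 and 24 h, against 0.01, 0.08, 0.09 and 0.07 for all genes tested. Leaving out the third 24 h library gave 3 higher and 3 lower for 24 h, where 4699 of 14670 genes were higher and 4504 lower. In bulk RNA fewer cells with a transcript and less of it per cell cannot be told apart, in these and all later comparisons.

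**Figure D2:**
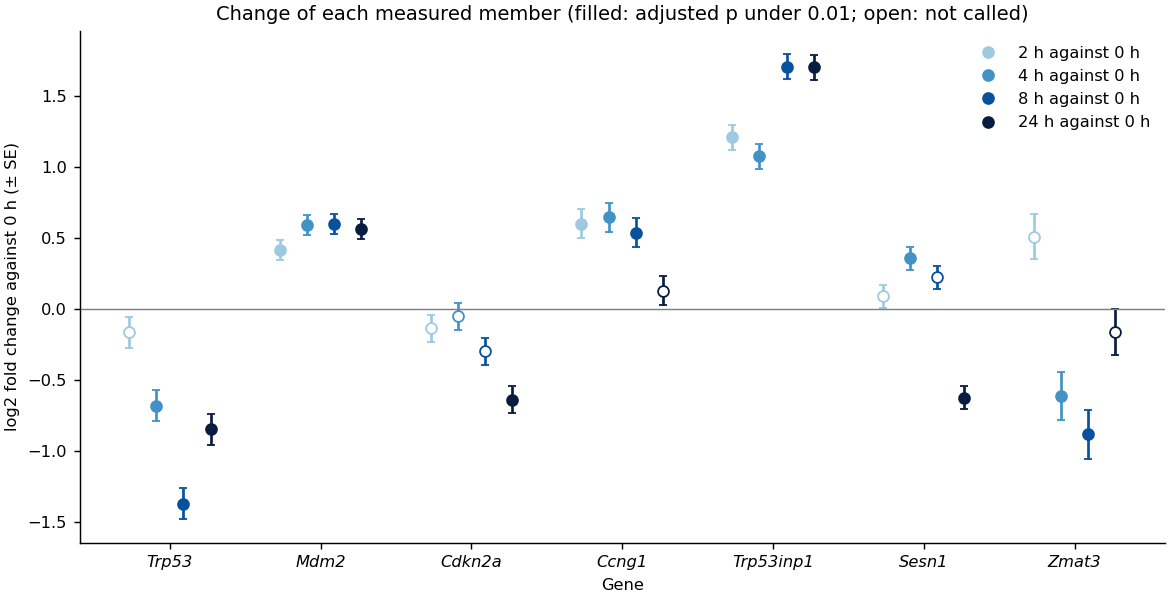
Log2 fold change against 0 h (± SE, edgeR) of the 7 tested members at 2, 4, 8 and 24 h; filled points passed an adjusted p of 0.01 and open points did not. Mdm2 and Trp53inp1 lay above 0 with filled points at all 4 times, Trp53 lay below 0 with filled points from 4 h, and Sesn1 changed sign between 8 and 24 h.

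Trp53 (ENSMUSG00000059552, chr11:69580359-69591873, + strand) fell and partly returned. Its level was 249, 252 and 236 CPM at 0 h, 227, 217 and 215 CPM at 2 h, 167, 158 and 135 CPM at 4 h, 101, 91.9 and 92.8 CPM at 8 h and 131, 114 and 165 CPM at 24 h. No library of any later time reached the lowest 0 h library, and the lowest 24 h library lay above the highest 8 h library. The log2 fold change against 0 h was -0.16 ± 0.11 (SE) at 2 h, which did not pass the test (adjusted p = 0.322). It was -0.68 ± 0.11 at 4 h (edgeR adjusted p = 8.91e-05) and -1.37 ± 0.11 at 8 h (adjusted p = 3.19e-08), where Trp53 stood at 38.7 ± 1.96% of its 0 h mean. At 24 h it was -0.85 ± 0.11 (adjusted p = 4.7e-06), and -1.0 without the third 24 h library.

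The steps of Trp53 ran in the same way. In the step to 4 h from 2 h, 0 members were higher and 2 lower (Trp53 and Zmat3), where 20.7% of genes were called (7.72% higher, 13% lower), and Trp53 fell by 0.52 ± 0.11 on the log2 scale (adjusted p = 0.0018). In the step to 8 h from 4 h, 1 member was higher (Trp53inp1) and 1 lower (Trp53), where 12.7% were called (5.73% higher, 6.97% lower), and Trp53 fell by 0.69 ± 0.11 (adjusted p = 0.000322). In the step to 24 h from 8 h, 2 members were higher (Trp53 and Zmat3) and 3 lower (Cdkn2a, Ccng1 and Sesn1), where 38.1% were called (20.8% higher, 17.3% lower). Trp53 rose in that step by 0.52 ± 0.11 (adjusted p = 0.00104). The rise was 0.36 without the third 24 h library, and fitting only the 8 and 24 h libraries left it short of the threshold (adjusted p = 0.0334, where the lowest over the alternatives was 8.04e-06).

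Mdm2 (ENSMUSG00000020184, chr10:117688875-117710758, - strand), the gene of the ubiquitin ligase that degrades p53, rose early and stayed up. It had 78.5, 78.4 and 77.7 CPM at 0 h, 103, 108 and 103 CPM at 2 h, 110.5, 119 and 125 CPM at 4 h, 117, 119 and 120.0 CPM at 8 h and 123, 121 and 103 CPM at 24 h. All 12 MYC off libraries lay above all 3 MYC on libraries. The log2 fold change was 0.42 ± 0.07 at 2 h (edgeR adjusted p = 0.000428), then 0.59 ± 0.07 at 4 h (4.2e-06 likewise adjusted), then 0.60 ± 0.07 at 8 h (2.23e-06). For 24 h it was 0.56 ± 0.07 (adjusted p = 3.41e-06), and 0.64 without the third 24 h library. None of the steps between later times passed the test, except that 4 h against 2 h did without the third 24 h library (adjusted p = 0.00627, where all alternatives ranged up to 0.487). On the TPM scale the 24 h libraries (77.4, 75.8 and 74.2 TPM) were all above those of 8 h (64.5, 62.6 and 61.1 TPM), whereas on the TMM scale the 24 h and 8 h libraries overlapped.

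Cdkn2a (ENSMUSG00000044303, chr4:89274471-89294653, - strand) encodes p16INK4a and p19ARF from separate first exons, and the gene counts do not tell their transcripts apart. It had 134, 133 and 138 CPM at 0 h, 123, 120.2 and 126 CPM at 2 h, 132, 119.6 and 139.6 CPM at 4 h, 114, 107 and 109.5 CPM at 8 h and 95.1, 94.8 and 71.1 CPM at 24 h. The 0 h and 4 h libraries overlapped, and the 24 h libraries were the lowest of all on this scale. On the TPM scale the 24 h libraries (259, 257 and 223 TPM) overlapped with those of 8 h (272, 243 and 242 TPM). Their TPM means were 81.5% and 83.4% of the 0 h mean at 24 and 8 h. The gene fell by 0.64 ± 0.09 on the log2 scale at 24 h (edgeR adjusted p = 1.87e-05), and by 0.51 without the third 24 h library. At 8 h the log2 fold change was -0.30 ± 0.09, just short of the threshold (adjusted p = 0.0116). That value crossed the threshold in 11 of 23 alternatives, which gave adjusted p from 4.02e-05 to 0.206. The further fall from 8 h, -0.34 ± 0.09 (adjusted p = 0.00676), was lost in 9 of 23 alternatives, among them the library totals in place of TMM and the fits without any 1 of the 8 h libraries.

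Ccng1 (ENSMUSG00000020326, chr11:40748552-40755311, - strand) rose within 2 h, and its 24 h level depended on 1 library and on the scaling. It had 109, 119 and 117 CPM at 0 h, 166, 181 and 176 CPM at 2 h, 165, 191 and 183 CPM at 4 h, 159.8, 165 and 177 CPM at 8 h and 139, 137 and 101 CPM at 24 h. Every library of 2, 4 and 8 h lay above every 0 h library, while the 24 h libraries straddled them because the third of them was the lowest of all 15. The log2 fold change was 0.60 ± 0.10 at 2 h (edgeR adjusted p = 0.000448), then 0.65 ± 0.10 at 4 h (7.8e-05 likewise adjusted), then 0.54 ± 0.10 at 8 h (0.000288). For 24 h the value, 0.13 ± 0.10, was not called (adjusted p = 0.267), whereas 0.27 without the third 24 h library and 0.40 on library totals were, and adjusted p over the alternatives ranged from 0.000931 to 0.711. The fall in the step to 24 h from 8 h was 0.41 ± 0.10 on the log2 scale (adjusted p = 0.00364), and it was lost in 4 of 23 alternatives, those on library totals, with only these time points in the fit, and without the second or the third 8 h library.

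Trp53inp1 (ENSMUSG00000028211, chr4:11156431-11174379, + strand) had the largest log2 fold changes of the set against 0 h. It had 289, 271 and 301 CPM at 0 h, 584, 711 and 695 CPM at 2 h, 555, 617 and 642 CPM at 4 h, 883, 943 and 980.4 CPM at 8 h and 957, 975 and 870.4 CPM at 24 h. The 2 h and 4 h libraries overlapped with each other, as did those of 8 and 24 h, and all MYC off libraries lay above all MYC on libraries. The log2 fold change was 1.21 ± 0.09 at 2 h (edgeR adjusted p = 1.76e-07), then 1.08 ± 0.09 at 4 h (5.37e-08 likewise adjusted), then 1.71 ± 0.09 at 8 h (1.56e-10). For 24 h it was 1.70 ± 0.09 (adjusted p = 1.13e-10), and 1.75 without the third 24 h library. The step to 8 h from 4 h was a rise of 0.63 ± 0.09 (adjusted p = 8.41e-05), and neither of the other steps was called. In TPM it reached 473, 479 and 494 at 24 h, against 119, 108 and 121 at 0 h, and passed Cdkn2a as the most abundant member.

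Sesn1 (ENSMUSG00000038332, chr10:41809935-41908424, + strand) rose slightly and then fell. It had 199, 195 and 212 CPM at 0 h, 220.0, 211 and 215 CPM at 2 h, 237, 262 and 277 CPM at 4 h, 229.8, 238 and 240.5 CPM at 8 h and 133, 146 and 114 CPM at 24 h. The 24 h libraries lay below those of every other time. At 4 h the log2 fold change was 0.36 ± 0.08 (adjusted p = 0.00178), a call that was lost without the second 0 h library and without the second or the third 4 h library, where adjusted p reached 0.0334 (lowest of all alternatives, 1.11e-05). The 8 h value, 0.23 ± 0.08, did not pass (adjusted p = 0.0247), but was called in 4 of 23 alternatives, among them library totals and the fit without the third 24 h library (adjusted p over all alternatives 0.000942 to 0.162). The 24 h value was -0.62 ± 0.08 (adjusted p = 5.97e-06), or -0.53 without the third 24 h library. The fall of 0.85 ± 0.08 from 8 h (adjusted p = 1.12e-06) passed the test in all 23 alternatives.

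Zmat3 (ENSMUSG00000027663, chr3:32334792-32366014, - strand) was lower at 4 and 8 h and rose again by 24 h, all at a low level. It had 9.24, 10.0 and 9.22 CPM at 0 h, 12.1, 13.1 and 15.4 CPM at 2 h, 7.49, 6.31 and 4.83 CPM at 4 h, 5.72, 4.69 and 5.06 CPM at 8 h and 8.03, 6.92 and 10.6 CPM at 24 h. All 2 h libraries lay above, and all 4 and 8 h libraries below, the 0 h libraries, and those of 24 h overlapped with 0 h. The 2 h value, 0.51 ± 0.16 on the log2 scale, was not called (adjusted p = 0.0289) but was in 3 of 23 alternatives, among them the fit without the third 24 h library (adjusted p over all alternatives 2.1e-05 to 0.122), and the step to 4 h from 2 h, a fall of 1.12 ± 0.17, was called (adjusted p = 9.33e-05). Against 0 h the change was -0.61 ± 0.17 at 4 h (adjusted p = 0.00687, lost in 8 of 23 alternatives) and -0.88 ± 0.17 at 8 h (adjusted p = 0.000359). Zmat3 was higher at 24 h than at 8 h by 0.72 ± 0.17 (adjusted p = 0.00254), or 0.54 without the third 24 h library, a call lost without the second 8 h library and with only these time points in the fit. Its 24 h value against 0 h, -0.16 ± 0.16, was not called (adjusted p = 0.398), was -0.34 without the third 24 h library and turned sign on library totals (0.12).

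**Figure D3:**
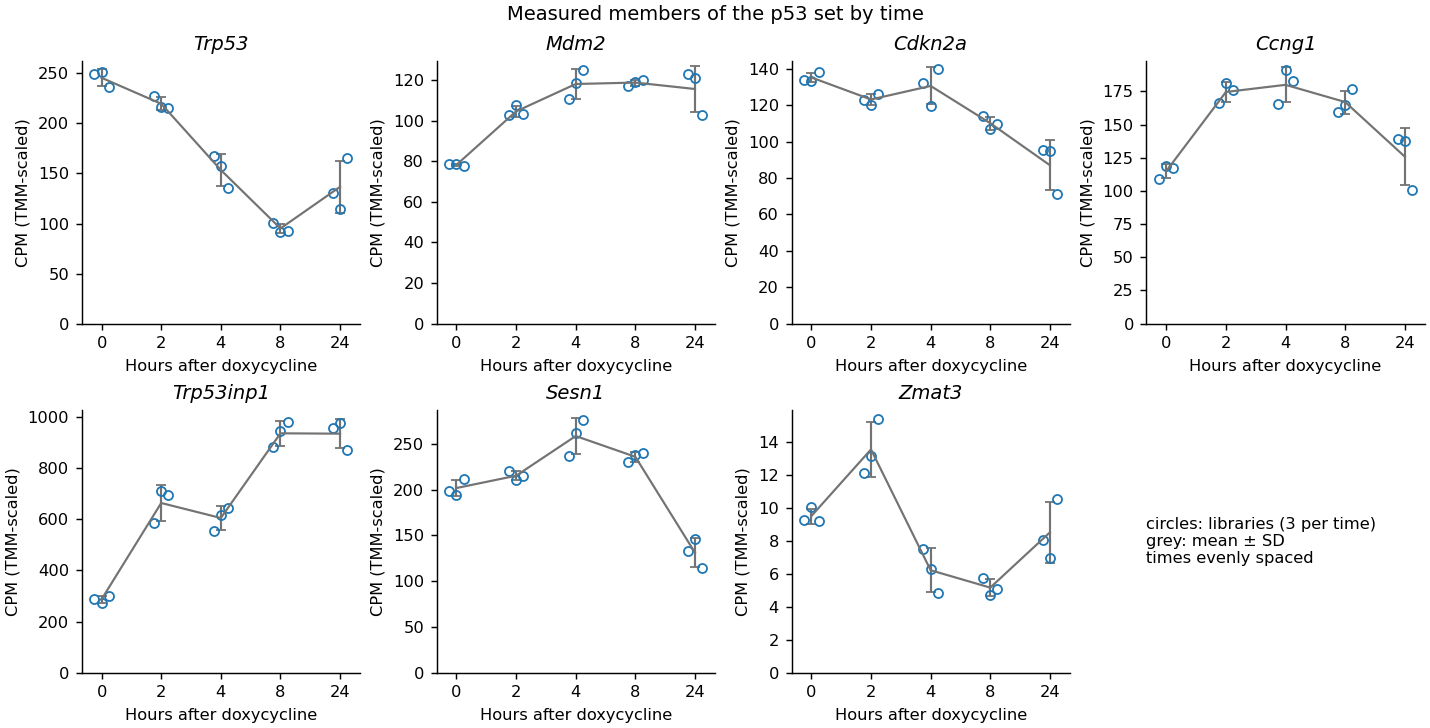
TMM-scaled CPM of the 7 tested members at 0, 2, 4, 8 and 24 h of doxycycline (evenly spaced); circles are libraries, 3 per time, and gray lines and bars are means ± SD. Mean Trp53 was lowest at 8 h (95.1 CPM), mean Trp53inp1 was at 936 and 934 CPM at 8 and 24 h, and Sesn1 was lowest at 24 h (131 CPM).

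On library totals instead of TMM the median log2 fold change of all genes was 0.35 at 24 h, a shift of 0.27, and 69.0% of all calls were higher. The shift was 0.11 at 8 h, with 59.9% of calls higher, and 0.05 at 2 and 4 h. It was 0.17 in the step to 24 h from 8 h, with 74.4% of calls higher, and in the step to 8 h from 4 h 60.9% were. On that scale 3 members were higher and 3 lower at 24 h, 4 higher and 1 lower at 4 h, and 2 higher and 1 lower in the step to 24 h from 8 h. Over all 14485 genes the calls were 6358 higher and 2858 lower, 3069 and 2590, and 4631 and 1597 in these comparisons. With upper-quartile factors the median of all genes was 0.18, 0.24 and 0.22 at 4, 8 and 24 h. With them 3581 genes rose and 2419 fell by 4 h, while the 8 h calls were 4944 higher against 2847 lower. The splits were 1607 higher and 1571 lower in the step to 4 h from 2 h, and 1111 and 751 in the step to 8 h from 4 h.

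To place the set within the wider pathway, 40 other p53 target genes were listed by function, of which 34 were tested. The numbers higher were 1, 9, 11 and 14, and those lower 4, 5, 7 and 9, at 2, 4, 8 and 24 h. Of all genes tested, 6.6%, 18.1%, 25.3% and 30.7% were higher at these times, and 8.59%, 19.9%, 25.1% and 28.1% lower. These shares are the background for each list below. Their median log2 fold change was 0.06, 0.20, 0.25 and 0.48 at 2, 4, 8 and 24 h. At 24 h the split was 19 higher and 6 lower on library totals, and 14 and 9 without the third 24 h library. Of the 34, 24 were called at 1 or more of the 4 times against 0 h. The test over the time course as a whole, a different measure, called 74.2% of all genes. The listed targets moved in both directions, as did all genes tested.

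Among 7 targets for cell cycle arrest, 6 were tested, and 1, 3, 3 and 4 were higher at 2, 4, 8 and 24 h with none lower. Cdkn1a, the gene of p21, had 14.8, 12.3 and 12.5 CPM at 0 h, 13.8, 15.7 and 15.4 CPM at 2 h, 24.3, 26.6 and 24.9 CPM at 4 h, 48.1, 43.4 and 44.4 CPM at 8 h and 41.1, 38.7 and 41.8 CPM at 24 h. The 2 h and 0 h libraries overlapped, and those of 4, 8 and 24 h lay above all of them. The log2 fold change was 0.94 ± 0.09 at 4 h (edgeR adjusted p = 2.53e-07), then 1.78 ± 0.09 at 8 h (7.34e-11 likewise adjusted), then 1.62 ± 0.09 at 24 h (1.52e-10). Btg2, an antiproliferative gene, was higher by 0.55, 0.95 and 1.07 on the log2 scale at 4, 8 and 24 h. Ptprv, a tyrosine phosphatase gene, was higher by 2.99 ± 0.28 at 24 h (adjusted p = 1.11e-07), with 92.3, 81.7 and 214 CPM at 24 h, against 18.6, 15.2 and 15.2 CPM at 0 h, the highest of these in the library that stood apart. Gtse1, whose product binds p53 in the nucleus, was higher at 2, 4 and 24 h (0.67, 0.63 and 0.51). Its 24 h libraries had 79.2, 80.1 and 114 CPM, and the 24 h value was 0.32 without the third of them and lost its call in 2 of 23 alternatives (adjusted p up to 0.024). Rprm had 0 counts in every library.

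The 13 apoptosis and death receptor targets split, with 11 tested and 0, 2, 3 and 4 higher and 3, 3, 4 and 5 lower at 2, 4, 8 and 24 h. Aen, a nuclease gene, fell furthest, with 59.9, 63.0 and 64.5 CPM at 0 h, 27.7, 31.4 and 32.1 CPM at 2 h, 7.49, 7.04 and 7.91 CPM at 4 h, 7.77, 6.67 and 8.17 CPM at 8 h and 10.8, 13.2 and 8.45 CPM at 24 h. Its log2 fold change was -1.04 ± 0.12 at 2 h (edgeR adjusted p = 1.28e-05), then -3.06 ± 0.13 at 4 h (4.21e-11 likewise adjusted). Bid, which links death receptors to mitochondria, was lower by 0.84, 1.44, 1.14 and 1.43 on the log2 scale at the 4 times. Bbc3, the gene of PUMA, had its lowest level at 4 h, with 3.65, 3.60 and 3.52 CPM there, and its change at 4 h was -1.77 ± 0.12 (adjusted p = 9.73e-09). Bax, the pore-forming effector, was lower at 8 and 24 h (-0.97 and -1.09). Fas, the death receptor, went the other way, by 1.04, 1.76 and 2.02 at 4, 8 and 24 h (adjusted p = 2.03e-09 at 24 h), and Apaf1, the core of the apoptosome, by 0.60, 0.52 and 1.03. Trp53i11, a p53-inducible gene, was higher at 8 and 24 h (0.86 and 1.58 ± 0.17, adjusted p = 6.36e-07 at 24 h). Pidd1, a death domain gene, was higher at 24 h by 1.21 ± 0.19 (adjusted p = 4.08e-05), with 57.9, 52.5 and 105 CPM at 24 h, against 33.4, 30.9 and 28.8 CPM at 0 h. The highest 24 h levels of Trp53i11, Pidd1 and Apaf1 were in the library that stood apart. Pmaip1, the gene of NOXA, had 0 counts, and Perp had 1 count in all.

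Of 8 DNA repair targets, all tested, 0, 3, 4 and 4 were higher and 0, 1, 1 and 2 lower at 2, 4, 8 and 24 h. Ddb2 and Xpc, both damage sensors of nucleotide excision repair, moved apart: Ddb2 was higher by 0.62, 1.21 and 1.17 on the log2 scale and Xpc lower, at -1.24, -1.26 and -0.91, at 4, 8 and 24 h. Pcna, the replication clamp, was higher by 0.77, 0.59 and 0.93 at these times, and Polk, a translesion polymerase gene, by 0.27, 0.61 and 0.78, its 4 h call being lost in 15 of the 23 alternatives. Ercc5, a repair endonuclease gene, was higher by 0.35 at 8 h, a call lost in 13 of 23 alternatives, and by 0.45 at 24 h. Its 24 h libraries had 19.0, 20.5 and 25.5 CPM, the highest in the library that stood apart. Of 12 metabolism and stress targets, 9 were tested, and 0, 1, 1 and 2 were higher and 1, 1, 2 and 2 lower. Ddit4, an inhibitor of mTORC1, was higher by 0.75, 1.44 and 1.92 at 4, 8 and 24 h. Tigar, whose product restrains glycolysis, was lower at all 4 times (-0.62, -0.78, -1.77 and -1.83), its 2 h call being lost in 4 of 23 alternatives (adjusted p up to 0.0295). Gls2, a mitochondrial glutaminase gene, was lower at 8 and 24 h (-1.11 and -1.68). Its level was low, with 3.08, 2.62 and 3.05 CPM at 0 h and 1.38, 0.743 and 0.601 CPM at 24 h. Ephx1, an epoxide hydrolase gene, was higher at 24 h at under 3 CPM. Gdf15 and Ddit4l had 1 count each and Ak1 had 63, and these were not tested.

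**Figure D4:**
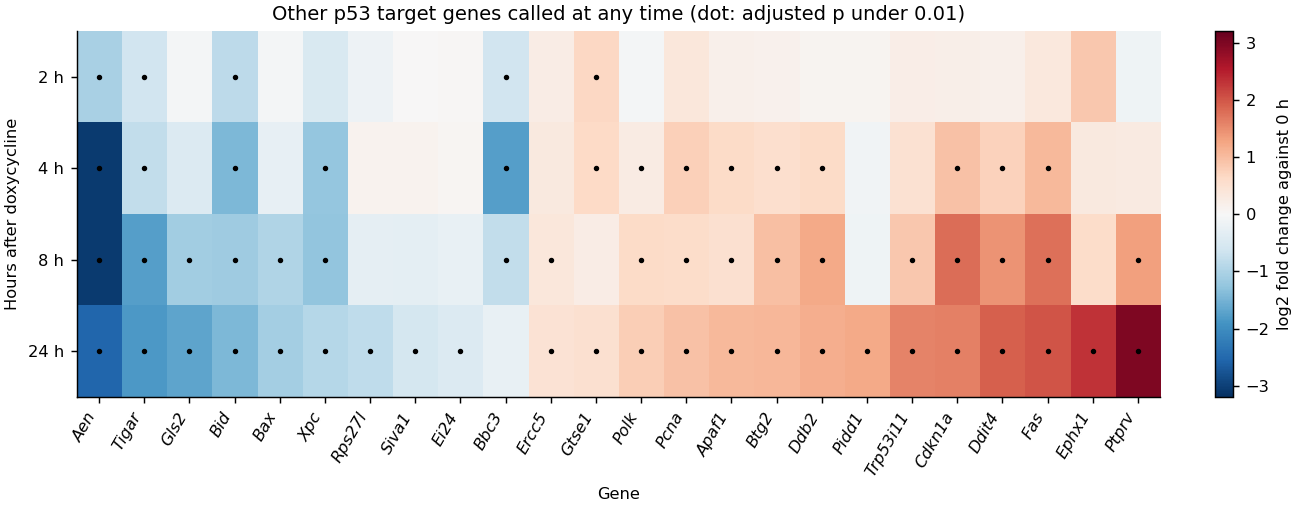
Log2 fold change against 0 h (color) of the 24 other p53 target genes called at 1 or more times, ordered by their 24 h value; rows are 2, 4, 8 and 24 h and dots mark adjusted p under 0.01 (edgeR). Values ran from -3.06 (Aen, 4 h) to 2.99 (Ptprv, 24 h), with Aen, Bid and Tigar lower and Cdkn1a, Fas and Ddit4 higher.

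Among 20 genes that modify or bind p53, all tested, 3, 2, 2 and 6 were higher and 2, 9, 9 and 5 lower at 2, 4, 8 and 24 h. Usp10, a deubiquitinase that stabilizes p53, had 109, 109 and 108 CPM at 2 h, against 159, 163 and 156 CPM at 0 h, and its log2 fold change was -0.55, -1.51, -1.63 and -1.46 at the 4 times (adjusted p = 5.27e-10 at 24 h). Atr, a DNA damage kinase, was lower at 4, 8 and 24 h (-0.99, -1.15 and -0.54), and Atm, its relative, at 4 and 8 h (-0.89 and -0.73). Mdm4, the MDM2-related inhibitor of p53, was called only at 24 h, where it was higher by 1.07 ± 0.15 (adjusted p = 9.29e-06), with 156, 151 and 259 CPM at 24 h, against 94.6, 88.3 and 86.0 CPM at 0 h. The value of 259 CPM was in the library that stood apart. Rchy1, another ubiquitin ligase for p53, was higher by 0.43, 0.79, 0.81 and 0.64 at the 4 times. Sirt1, a deacetylase gene, and Kat5, an acetyltransferase gene, were higher at 2 h by 0.39 and 0.34, and Cop1, a ubiquitin ligase gene, was lower by 0.25 on the log2 scale. The 2 h calls of Rchy1, Kat5 and Cop1 were lost in 15, 8 and 14 of 23 alternatives. In the main fit Cop1 was also called lower at 4, 8 and 24 h, Kat5 higher at 4 h and Sirt1 higher at 8 h. At 24 h the split of this list was 8 higher and 2 lower on library totals, and 5 and 8 without the third 24 h library.

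Of 14 partners of ARF and of the ribosomal route to MDM2, 12 were tested, and 1, 1, 1 and 4 were higher and 1, 2, 4 and 6 lower at 2, 4, 8 and 24 h. Npm1, the nucleolar protein that holds ARF, was lower at 8 and 24 h (-1.11 ± 0.12 and -3.07 ± 0.13, adjusted p = 1.49e-11 at 24 h). It had 816, 828 and 549 CPM at 24 h, against 5929, 6389.9 and 6078 CPM at 0 h. Rpl5, Rpl11 and Rpl23, ribosomal proteins that can bind MDM2, were lower at 24 h by 1.07, 1.08 and 1.40 on the log2 scale. They were not called at 2, 4 or 8 h against 0 h. At 24 h Rpl5 had 1083, 1168 and 645 CPM, Rpl11 801, 874 and 498 CPM and Rpl23 492, 534 and 352 CPM. The lowest of each, and of Npm1, was in the library that stood apart. Trip12, a ubiquitin ligase for ARF, was higher at 4, 8 and 24 h (0.47, 0.47 and 0.59). At 2 h E2f1, a transcription factor that can raise ARF, was higher by 0.41 on the log2 scale. Bmi1, a Polycomb repressor of Cdkn2a, was lower by 0.30 at 2 h. These 2 h calls were lost in 8 and 3 of 23 alternatives. Bmi1 was also called lower at 4, 8 and 24 h, though library totals called no gene of this list lower at 4 h. E2f1 was also called higher at 24 h, with its highest 24 h level in the library that stood apart. Twist1 had 0 counts and Tbx2 had 5.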

How the data were processed

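Poly(A) RNA of 15 libraries was sequenced by the authors, whose notes credit mm10, STAR 2.5.4b, featureCounts and cutadapt 1.16. The annotation release and strand setting are not given in sources used here, so antisense reads cannot be told apart. Each deposited table held raw counts per gene, FPKM (not used) and TPM. The deposited counts entered the tests, and the TPM that the authors computed served for levels between genes. Gene names came from GENCODE M21 (53274 IDs matched, 105 did not), and the human MYC row was fitted with the mouse genes.

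Tests on counts used edgeR 4.0.16 (R 4.3.3, filterByExpr, 14485 genes, TMM, glmQLFit and glmQLFTest over 15 libraries with 1 mean per time point, Benjamini-Hochberg adjustment, threshold 0.01). The fit was checked on simulated data. Values per library are CPM on TMM-scaled totals. Libraries of 1 time point differed by more than sampling noise, so none was taken for a duplicate. SE is the log2 fold change over the root of the test statistic. Promoter windows came from RefSeq (GRCm38.p6). Named genes were the 10 members, the human MYC transgene, up to 4 called genes with the largest change per list and comparison, or any where 5 or fewer were called, and list genes that were not tested. The members and lists were chosen with earlier results of these data known. Alternatives were RLE, upper-quartile and library-total scaling, no filter or 10 counts in every library, a replicate block, only the compared times, each library left out, DESeq2 1.42.0, and adjusted p under 0.05.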

Additional observations from a re-analysis of the deposited data

How the results depend on the processing

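Over the log2 fold changes and calls of the 7 tested members in all comparisons, 1049 alternative values kept their direction and side of the threshold, 27 lost a call, 28 gained one and 23 changed sign. Counts of called members moved by over 1.5 times in few settings. At 2 h against 0 h the fit on only the compared times called 6 members in place of 3. Of 13316 genes that fit called 2433 higher and 2794 lower, where the main fit called 15.2% of all genes. For 24 h against 8 h it called 1 member, and library totals called 3, in place of 5. Of 14037 genes the fit on only these times called 782 higher and 1151 lower, where the main fit called 38.1% of all genes. Library totals had 4631 higher and 1597 lower of 14485. With each library left out in turn the counts were 3 to 4, 4 to 6, 5 to 7 and 5 to 6 at 2, 4, 8 and 24 h against 0 h. They were 2 to 4 for 4 h against 2 h (4 without 24h replicate 3) and 2 to 3 for 8 h against 4 h. For 24 h against 8 h they were 2 to 5 (2 without 8h replicate 2 and 3 without 8h replicate 3), and 7 over the time course. Without 24h replicate 3, 2415 of 14670 genes were higher and 2906 lower at 4 h against 2 h, where the main fit called 20.7%. At 24 h against 8 h, 2244 of 14808 genes were higher and 1975 lower without 8h replicate 2. Without 8h replicate 3 the calls were 2172 higher and 1856 lower of 14815. All sign changes were in values that did not pass the test. Mdm2 at 8 h against 4 h was -0.0095 with no filter and -0.042 to 0.049 with each library left out, and Mdm2 at 24 h against 8 h was 0.13 on library totals and -0.087 to 0.040 with each library left out. Cdkn2a at 4 h against 0 h was 0.049 with upper-quartile factors, and at 4 h against 2 h -0.013 to 0.099 with each library left out. Ccng1 at 4 h against 2 h was -0.049 to 0.070 likewise. Trp53inp1 at 24 h against 8 h was 0.16 on library totals, 0.021 with at least 10 counts in every library, 0.00085 with the replicate block and -0.038 to 0.047 with each library left out. Zmat3 at 24 h against 0 h was 0.12 on library totals. The cause of these changes was not tested.

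The replicate numbers were checked as a pairing: for 7 of 15 libraries the mean correlation was highest with libraries of their own number. Correlations within a number ran from -0.599 to 0.541, with medians of 0.173, 0.0302 and 0.0408 for numbers 1, 2 and 3. The check does not settle if the numbers are a pairing, and the main fit used none. With the replicate block 3, 5, 5 and 5 members were called at 2, 4, 8 and 24 h against 0 h, and 2, 2 and 4 in the 3 steps. Of 28 levels relative to 0 h, 16 moved by over 1 SD on library totals and 9 in deposited TPM. Depth limits Phlda3, Eda2r and Plk2.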

Other observations

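Among paralogs of the members, 11 were listed and 8 tested, and 6, 6, 7 and 7 were higher at 2, 4, 8 and 24 h against 0 h with none lower. Of all genes tested, 6.6%, 18.1%, 25.3% and 30.7% were higher at these times, and 8.59%, 19.9%, 25.1% and 28.1% lower. Ccng2, the relative of Ccng1, had 127, 126 and 120.4 CPM at 2 h and 288, 309.6 and 219 CPM at 24 h, against 36.2, 36.5 and 39.9 CPM at 0 h, a log2 fold change of 1.73 ± 0.12 at 2 h and 2.86 ± 0.13 at 24 h (edgeR adjusted p = 2.27e-11 at 24 h). Cdkn2d, a CDK4 and CDK6 inhibitor gene related to Cdkn2a, was higher by 1.01, 1.82, 2.29 and 2.74 on the log2 scale at the 4 times, and Cdkn2c, another, by 0.87, 1.42, 1.26 and 1.63. Cdkn2b, next to Cdkn2a on chromosome 4, had 1.14, 1.28 and 1.94 CPM at 24 h, against 0.273, 0.318 and 0.237 CPM at 0 h. Trp53inp2, the relative of Trp53inp1, was called at all 4 times and was higher by 1.66, 1.80 and 2.41 at 4, 8 and 24 h. Sesn3 was higher at all 4 times (0.62, 0.93, 0.56 and 0.47) while Sesn1 was lower at 24 h. The highest 24 h levels of Trp53inp2 and Sesn3 were in the library that stood apart. The p53 relatives Trp63 and Trp73 had 0 counts and 1 count, and Phlda2 had 1.

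Mtap, a methionine salvage gene beside Cdkn2a, was lower at all 4 times (-0.67, -2.17, -2.81 and -2.64, adjusted p = 5.07e-13 at 24 h), with 31.0, 28.0 and 25.0 CPM at 24 h, against 168, 172 and 182 CPM at 0 h. Of 8 listed neighbors of Cdkn2a and Trp53, 5 were tested. Wrap53, the neighbor of Trp53, was higher by 0.29 ± 0.09 at 24 h (adjusted p = 0.00879), a call lost in 18 of 23 alternatives. Dmrta1 had 1 count, and Sat2 and Shbg had 0.

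Profiles most like each member over the 15 libraries were ranked among 9058 protein-coding genes by Pearson correlation of log2(CPM + 2), as a description only, since all profiles share libraries and scaling. Nearest to Trp53 were Sf3a2 (0.993), Smarcc1 (0.992) and Ubap2l (0.986). Nearest to Mdm2 were Leprot, Ska2 and Pimreg (0.982 each). Nearest to Cdkn2a was Nr1i3 (0.984), to Ccng1 Pstk (0.978), to Trp53inp1 Tmem71 (0.981), to Sesn1 Cul2 (0.981) and to Zmat3 Ptpn4 (0.961).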
